A study of Homo sapiens with 8 samples.

Results

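The MHC class II antigen presentation pathway and the lysosomal protease gene CTSS were examined in established human ovarian cancer cell lines given double-stranded RNA. The 8 genes CIITA, HLA-DRA, HLA-DPA1, HLA-DPB1, CD74, HLA-DMA, HLA-DMB and CTSS were taken by symbol from the platform annotation. All 8 were on the array, with 14 probe sets, out of 11963 genes with 19070 probe sets that carry 1 gene symbol. CAOV-3, OVCAR-3, SKOV-3 and DOV-13 were each measured on a pair of arrays, 1 with total RNA of untreated cells and 1 with total RNA of cells that had pI:pC added to their medium, so both groups had 4 arrays. pI:pC is polyriboinosinic:polyribocytidylic acid, a synthetic double strand of RNA that sets off the same sensors as a viral genome. All cells were grown in the same medium with fetal bovine serum. Concentrations of pI:pC varied, per the labels, and neither the dose nor the time of a single array is stated, nor whether it came from 1 culture or several. No error within a line and condition is therefore known. The p-values given below, also those between lines, rest on how unequal the treated minus untreated differences of the lines were.

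MHC class II molecules are pairs of an alpha and a beta chain that show peptides from endocytosed protein to CD4+ T cells. They are normally made by dendritic cells, macrophages, B cells and thymic epithelium, and many other cells, carcinoma cells among them, can be brought to make them by interferon gamma. CIITA is the co-activator that switches the pathway on: it binds no DNA itself but docks on factors (RFX, CREB and NF-Y) sitting on the X and Y boxes of class II promoters. CD74, the invariant chain, fills the peptide groove until lysosomal proteases such as cathepsin S (CTSS) cut it to a short remnant, which HLA-DM, the pair of HLA-DMA and HLA-DMB, exchanges for a peptide.

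The untreated CAOV-3 cells were the highest of the lines in 5 of the 8 genes (CD74, HLA-DRA, HLA-DMA, HLA-DMB and HLA-DPB1), and the promoters of 4 of these are shown because they were the genes that were high together. The RefSeq promoter table (GRCh38.p14, 250 bases before to 50 after each gene's start, 300 bases in all) matched CD74, HLA-DMA, HLA-DMB, HLA-DPB1 and HLA-DPA1 by symbol, the last with 2 starts. CIITA, CTSS and HLA-DRA were not matched. Each sequence is written 5′ to 3′ on the strand of its gene. Capitals mark every run of the letters CCAAT, which the Y box holds, searched on both strands and so read as ATTGG on the opposite one. Only these letters were searched, so a marked run need not be a Y box.
CD74 (chr5:150412861-150413160, minus strand): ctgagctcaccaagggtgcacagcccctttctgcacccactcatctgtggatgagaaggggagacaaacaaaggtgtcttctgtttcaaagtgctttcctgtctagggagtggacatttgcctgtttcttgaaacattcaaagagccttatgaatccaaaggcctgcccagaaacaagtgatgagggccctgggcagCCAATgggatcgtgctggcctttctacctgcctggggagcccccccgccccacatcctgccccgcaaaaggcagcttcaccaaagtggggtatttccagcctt
HLA-DMA (chr6:32953048-32953347, minus strand): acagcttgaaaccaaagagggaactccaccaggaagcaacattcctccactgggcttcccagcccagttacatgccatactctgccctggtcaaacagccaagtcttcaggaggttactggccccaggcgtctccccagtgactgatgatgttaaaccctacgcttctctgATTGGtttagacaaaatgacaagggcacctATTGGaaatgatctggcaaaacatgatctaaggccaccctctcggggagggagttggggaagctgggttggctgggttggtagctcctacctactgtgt
HLA-DMB (chr6:32940979-32941278, minus strand): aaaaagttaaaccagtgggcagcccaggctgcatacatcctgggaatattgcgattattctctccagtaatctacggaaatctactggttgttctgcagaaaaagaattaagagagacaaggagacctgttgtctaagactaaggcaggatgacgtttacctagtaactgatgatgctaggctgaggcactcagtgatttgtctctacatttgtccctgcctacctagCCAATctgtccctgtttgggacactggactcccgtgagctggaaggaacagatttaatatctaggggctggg
HLA-DPB1 (chr6:33075740-33076039, plus strand): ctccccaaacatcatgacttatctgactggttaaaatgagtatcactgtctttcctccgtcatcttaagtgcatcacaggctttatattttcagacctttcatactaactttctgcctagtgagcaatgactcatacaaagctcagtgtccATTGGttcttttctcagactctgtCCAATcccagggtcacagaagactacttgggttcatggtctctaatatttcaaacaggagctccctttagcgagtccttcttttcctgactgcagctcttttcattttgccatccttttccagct

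All 4 printed promoters hold CCAAT on at least 1 strand, and neither of the 2 HLA-DPA1 windows does. In CD74 the match starts 53 bases before the gene's start, in HLA-DMB 22 bases, in HLA-DMA 79 and 49 bases and in HLA-DPB1 99 and 75 bases. CCAAT was found in 12155 of all 35116 promoters of the table (34.6%). A match describes letters in these windows, and a window without one says nothing about the factor.

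In the following, levels are log2 expression values as deposited by the authors after RMA, a difference of 1 is a doubling, and a gene is given by its probe set with the highest mean unless said otherwise. A difference is said to be called where limma's p-value, adjusted over all 11963 genes, was under 0.05. Levels of different genes are not compared. The median gene of an array pair lay between 6.66 and 6.77, and most class II values were below it, where RMA compresses differences. Fewer cells making a transcript and less of it in each cell cannot be told apart in such RNA.

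CIITA was low and flat over the lines. Its brightest probe set read 6.0 in untreated SKOV-3, 5.85 in DOV-13, 5.95 in CAOV-3 and 5.99 in OVCAR-3, and 6.24, 6.04, 5.86 and 5.91 after pI:pC. The groups overlapped, the range over all 8 arrays was 0.39, and every value was under the median gene. The other probe sets of CIITA ranged over 0.49 and 0.40 across the arrays, and no probe set was higher in CAOV-3, where the difference from the mean of the other lines was -0.10 (95% interval -0.31 to 0.11). Values this low and flat do not show whether the transcript was present.

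HLA-DRA encodes the alpha chain shared by all HLA-DR molecules. Untreated cells read 5.57 in SKOV-3, 5.61 in DOV-13, 6.59 in CAOV-3 and 5.58 in OVCAR-3, and treated cells 5.61, 5.64, 7.03 and 5.70. Both CAOV-3 arrays lay above the other 6, which spanned a narrow band. A second HLA-DRA probe set had the same order at the top, with 5.94 in untreated CAOV-3 against 4.50, 4.60 and 4.76 in SKOV-3, DOV-13 and OVCAR-3. Over both arrays of a line, CAOV-3 exceeded the mean of the other lines by 1.19 ± 0.10 (SE, limma, adjusted p = 2.9e-05), a ratio of 2.28.

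HLA-DPB1, the beta chain of HLA-DP, followed the same line. Its level was 4.49 in untreated SKOV-3, 4.33 in DOV-13, 6.51 in CAOV-3 and 4.63 in OVCAR-3, and 4.89, 4.44, 6.34 and 4.70 with pI:pC. CAOV-3 was higher than the mean of the other lines by 1.84 ± 0.11 (SE, limma, adjusted p = 5.56e-06). HLA-DPA1, the alpha chain that pairs with it, did not follow. It read 4.95 in untreated SKOV-3, 4.93 in DOV-13, 4.92 in CAOV-3 and 5.56 in OVCAR-3, and 4.93, 5.22, 5.10 and 5.32 in treated cells. The highest HLA-DPA1 values were those of OVCAR-3, 0.43 ± 0.11 (SE) above the mean of the other lines (limma, adjusted p = 0.0109), but without the untreated OVCAR-3 array this call was lost (0.24, adjusted p = 0.195). The other HLA-DPA1 probe sets ranged over 0.11 and 0.22 across the 8 arrays, so no probe set of the gene showed CAOV-3 high.

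CD74 had the widest range of the 8 genes, 3.48 from the lowest array to the highest. Untreated levels were 5.47 in SKOV-3, 5.58 in DOV-13, 7.40 in CAOV-3 and 6.23 in OVCAR-3, and treated levels 5.49, 5.22, 8.70 and 6.92. Both CAOV-3 arrays were above the other 6, and both OVCAR-3 arrays were above those of SKOV-3 and DOV-13. CAOV-3 exceeded the mean of the other lines by 2.24 ± 0.28 (SE, limma, adjusted p = 0.00029), and exceeded OVCAR-3 alone by 1.48 (adjusted p = 0.00751). The call against OVCAR-3 was lost without the untreated OVCAR-3 array (1.29, adjusted p = 0.0674) and with the trended robust form of eBayes (adjusted p = 0.0505). OVCAR-3 was above SKOV-3 and DOV-13, with differences of -1.09 for SKOV-3 minus OVCAR-3 (adjusted p = 0.0288) and -1.18 for DOV-13 minus OVCAR-3 (adjusted p = 0.0221). Both calls were lost without either of the OVCAR-3 arrays (adjusted p between 0.0592 and 0.175), and the first also without either SKOV-3 array and the second without the treated DOV-13 array. SKOV-3 and DOV-13 were not separated (0.08, 95% interval -0.71 to 0.87).

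The HLA-DM genes were both high in CAOV-3. HLA-DMA read 4.74 in untreated SKOV-3, 4.70 in DOV-13, 7.38 in CAOV-3 and 5.21 in OVCAR-3, and 4.58, 4.76, 6.84 and 4.73 after pI:pC. HLA-DMB read 5.52, 5.59, 6.37 and 5.80 untreated, and 5.65, 5.56, 5.98 and 5.55 treated. The gap was wide for HLA-DMA, where CAOV-3 exceeded the mean of the other lines by 2.32 ± 0.12 (SE, limma, adjusted p = 3.42e-06), a ratio of 5.01. For HLA-DMB it was 0.57 ± 0.11 (SE, adjusted p = 0.00263), and the treated CAOV-3 array at 5.98 lay close above the untreated OVCAR-3 array at 5.80.

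CTSS did not mark CAOV-3 before treatment. Its untreated level was 4.88 in SKOV-3, 5.18 in DOV-13, 5.08 in CAOV-3 and 5.49 in OVCAR-3, so OVCAR-3 was highest and CAOV-3 lay among the others. The second probe set gave 3.83, 3.92, 3.79 and 4.10 in the same order of lines. Over both arrays CAOV-3 was above the mean of the other lines by 0.61 ± 0.27 (SE, limma, adjusted p = 0.0966), and without the treated CAOV-3 array the difference was -0.10 (adjusted p = 0.476). Without the untreated CAOV-3 array it was 1.31 (adjusted p = 0.000125).

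Counted together, 5 of the 8 genes were called higher in CAOV-3 than in the other lines and 0 lower, where 25.9% of all genes were called higher and 27.9% lower. Both CAOV-3 arrays lay above the other 6 in the same 5 genes, against 16.5% of all genes. The like count was 1 for OVCAR-3, HLA-DPA1 (17.3% of all genes), and 0 for SKOV-3 (15.4%) and DOV-13 (13.3%). In SKOV-3 0 members were called higher (24.5% of all genes) and 4 lower (23.4%), in DOV-13 0 higher (23.9%) and 4 lower (22.3%), and in OVCAR-3 1 higher (23.9%) and 3 lower (29.1%). These 4 in each of SKOV-3 and DOV-13 were CD74, HLA-DRA, HLA-DMA and HLA-DPB1, and the 3 in OVCAR-3 were HLA-DRA, HLA-DMA and HLA-DPB1. The SKOV-3 count was between 3 and 6 without 1 array: CD74 (adjusted p = 0.133) and HLA-DRA (0.0923) lost their calls without the treated SKOV-3 array and HLA-DPB1 (0.112) without the untreated one, and CD74 also with the trended robust eBayes (0.0553). The DOV-13 count was 2 without the treated DOV-13 array, and the OVCAR-3 count, 4 in both directions, was 1 without either OVCAR-3 array. The 2 arrays of a line differ in treatment, so these tests compare the cell populations on these arrays and not independent cultures of a line.

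Pairs of lines showed which neighbours were separate. Against CAOV-3, SKOV-3 was called lower in 6 members and higher in 0 (24.9% and 26.3% of all genes), and DOV-13 lower in 5 and higher in 0 (24.4% and 26.1%). The 6 were the genes above plus CTSS, whose difference of -0.96 for SKOV-3 minus CAOV-3 (limma adjusted p = 0.0438) was lost in 9 of 13 alternatives, with -0.25 (adjusted p = 0.133) without the treated CAOV-3 array. CAOV-3 exceeded OVCAR-3 in 5 members (26.7% of all genes) and was lower in 1, HLA-DPA1 (25.1%), at -0.43 (adjusted p = 0.0273, lost without either untreated array of these lines and with the mean of all probe sets). HLA-DMB, at 0.51 above OVCAR-3 (adjusted p = 0.0134), lost its call without the treated OVCAR-3 array (adjusted p = 0.108) or the untreated CAOV-3 array (adjusted p = 0.0996).

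Among the other 3 lines few members were separate. SKOV-3 was lower than OVCAR-3 in 2, CD74 and HLA-DPA1, and higher in 0 (23.7% and 27.3% of all genes), a count that was 0 without either SKOV-3 array or the untreated OVCAR-3 array and 1 without the treated OVCAR-3 array. DOV-13 was lower than OVCAR-3 in 1, CD74, and higher in 0 (22.9% and 26.7%), a count that was 0 without the untreated OVCAR-3 array and 2 without either CAOV-3 array. SKOV-3 and DOV-13 differed in 0 members, where 19.2% of all genes were called higher and 18.9% lower, and in 1 without either CAOV-3 array or the untreated SKOV-3 array. That count of 0 does not show equal levels: the 95% interval of SKOV-3 minus DOV-13 ran from -0.31 to 0.24 for HLA-DRA and from -1.12 to 0.43 for CTSS.

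**Figure D1:**
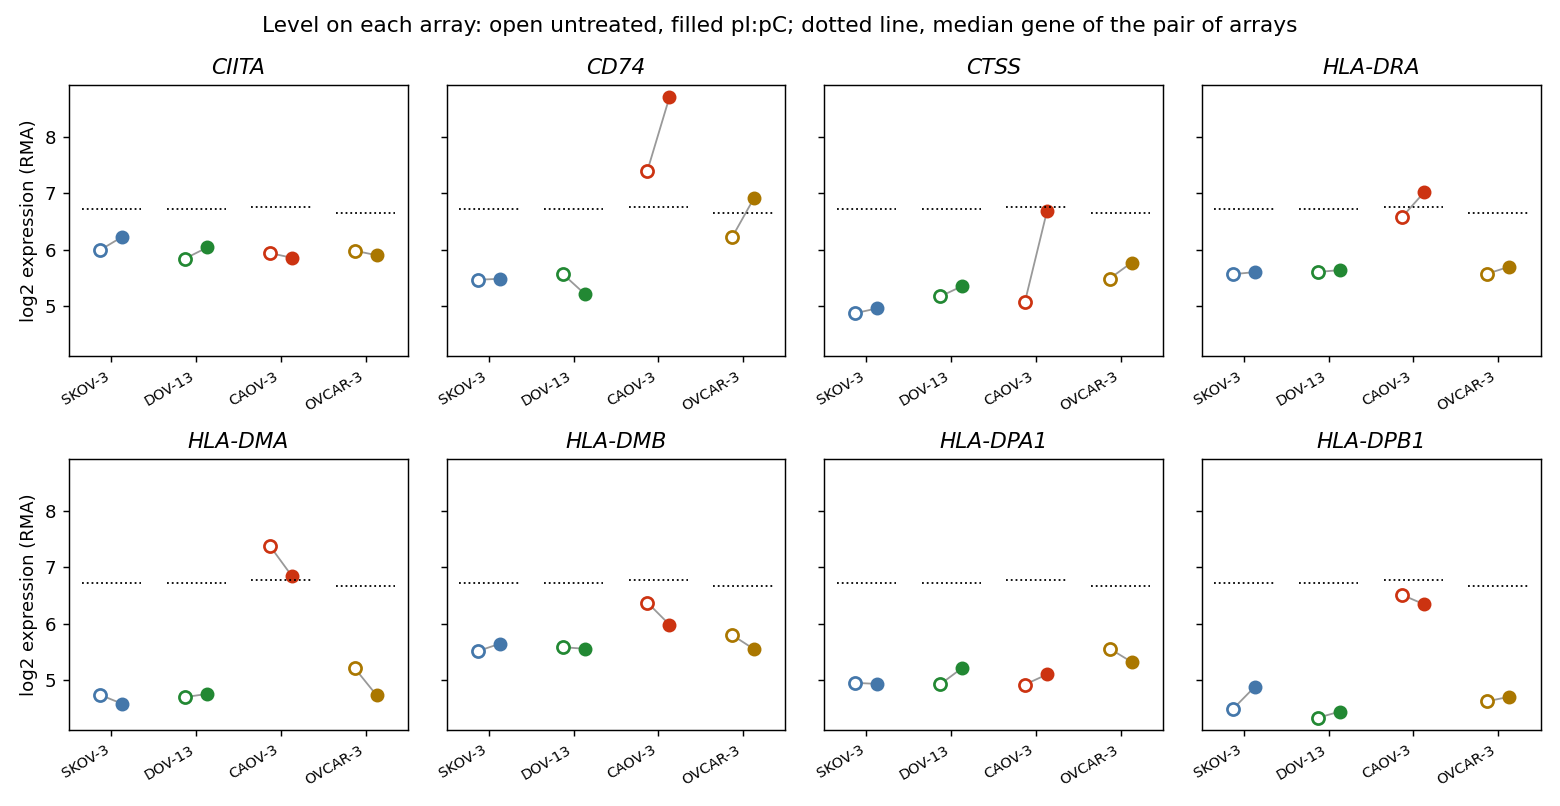
Deposited log2 expression of each gene (vertical axis) on the 8 arrays, grouped by cell line (horizontal axis). Open points are untreated cells, filled points are cells given pI:pC, a grey line joins the pair and a dotted line is the median gene of that pair. CD74, HLA-DRA, HLA-DMA, HLA-DMB and HLA-DPB1 are highest on both CAOV-3 arrays, CIITA and HLA-DPA1 are not.

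**Figure D2:**
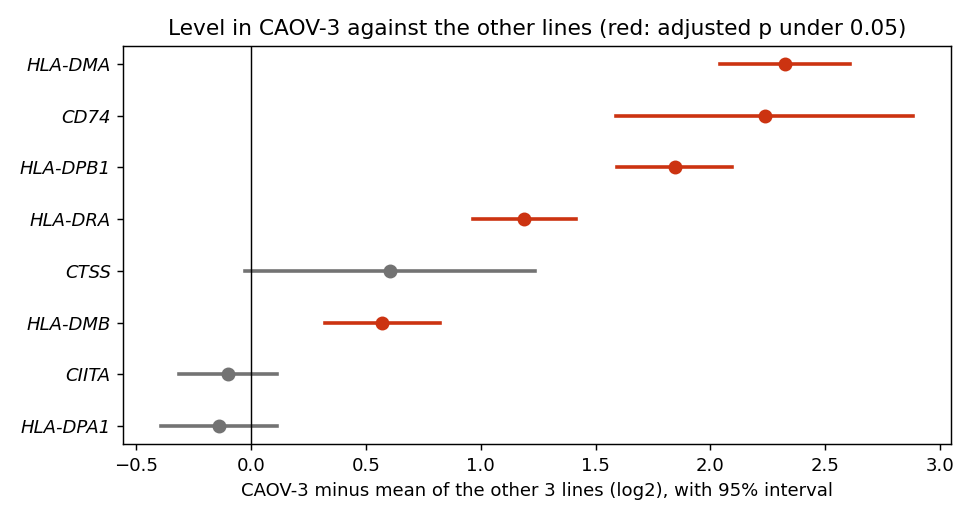
Difference between CAOV-3 and the mean of the other 3 lines on the log2 scale (horizontal axis) for each gene (vertical axis), from the limma fit over 8 arrays. Bars are 95% intervals and red marks an adjusted p under 0.05, from 0.57 for HLA-DMB to 2.32 for HLA-DMA.

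After pI:pC, CTSS and CD74 were the members with the largest differences, and they were seen in CAOV-3 and, to a smaller size, in OVCAR-3. A single array stands for each condition of a line, so these differences have no replicates and carry no p-value. CTSS in CAOV-3 went from 5.08 to 6.68, a difference of 1.60 (a ratio of 3.04), and its second probe set from 3.79 to 5.37, a difference of 1.58. In OVCAR-3 the 2 probe sets of CTSS differed by 0.29 and 0.74. DOV-13 had 0.18 and 0.17, and SKOV-3 had 0.09 and -0.04. The treated CAOV-3 level was thus the highest of the 8 arrays in both probe sets, although the untreated one was not.

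CD74 differed by 1.30 in CAOV-3 (a ratio of 2.46), by 0.70 in OVCAR-3 (1.62), by 0.02 in SKOV-3 and by -0.36 in DOV-13. In the lines where CD74 was already higher it was higher still after pI:pC, and in DOV-13 it was lower. HLA-DRA was higher on every treated array, by 0.44 in CAOV-3, 0.12 in OVCAR-3, 0.04 in SKOV-3 and 0.03 in DOV-13. Its second probe set had 0.28, 0.16, 0.09 and 0.03 in the same lines.

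The HLA-DM genes went the other way on the same arrays. HLA-DMA differed by -0.53 in CAOV-3 (a ratio of 0.69), by -0.48 in OVCAR-3 (0.72), by -0.16 in SKOV-3 and by 0.06 in DOV-13. HLA-DMB differed by -0.39 in CAOV-3, -0.25 in OVCAR-3, 0.13 in SKOV-3 and -0.03 in DOV-13. On the treated arrays of CAOV-3 and OVCAR-3 the chaperone CD74 was thus higher and both chains of the peptide exchanger HLA-DM were lower. This rests on 1 pair of arrays per line. HLA-DMB lay under the median gene on all arrays of these lines, and HLA-DMA on both arrays of OVCAR-3.

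The HLA-DP genes and CIITA did not share a direction over the lines. HLA-DPB1 had -0.17 in CAOV-3, 0.08 in OVCAR-3, 0.40 in SKOV-3 and 0.11 in DOV-13, and HLA-DPA1 had 0.18, -0.24, -0.02 and 0.29. CIITA differed by 0.23 in SKOV-3, 0.20 in DOV-13 and -0.08 in both CAOV-3 and OVCAR-3. The line with the highest class II levels was thus not the one in which CIITA or HLA-DPB1 was most above its untreated value.

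Past a difference of 1 with the higher value at or above the median gene, 1 member was counted as higher in CAOV-3, CD74, where 0.836% of all genes were counted, and 0 as lower (0.125% of all genes). CTSS passed the difference, but its treated level of 6.68 was just under the median gene of 6.77. In OVCAR-3 0 members were counted higher (0.217% of all genes) and 0 lower (0%). With a minimum difference of 0.5, CD74 was counted higher (2.28% of all genes) and HLA-DMA lower (1.52%) in CAOV-3, and in OVCAR-3 CD74 was higher (0.493%) and 0 members lower (0.184%). With no minimum level, CTSS joined CD74 in CAOV-3 (0.978% higher, 0.15% lower). In SKOV-3 and DOV-13 0 members were counted, where 0.00836% and 0.0167% of all genes were counted as higher and 0.00836% in each as lower.

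Over the 4 lines no member was called by limma with the cell line as a block, in either direction (0% of all genes called). At an unadjusted p under 0.05 there was 1 member, HLA-DMA, where 3.74% of all genes were. HLA-DMA had a mean difference of -0.28 ± 0.28 (SD, n = 4 lines, 95% interval of the mean -0.53 to -0.03, limma adjusted p = 0.988). CTSS had 0.54 ± 0.71 (interval -0.01 to 1.09), CD74 0.41 ± 0.73 (interval -0.15 to 0.98) and HLA-DRA 0.16 ± 0.19 (interval -0.04 to 0.35), each with adjusted p = 0.988. Without CAOV-3 the means were 0.19 for CTSS, 0.12 for CD74, 0.07 for HLA-DRA and -0.05 for HLA-DMB, against -0.14 with it. CTSS and HLA-DRA were higher in all 4 lines, as were 6.88% of all genes, and 0 members were lower in all 4, as were 4.53%. HLA-DPB1 had 0.10 ± 0.23, CIITA 0.07 ± 0.17 and HLA-DPA1 0.05 ± 0.23, the last at -0.026 without DOV-13. Without SKOV-3 the mean was 0.0068 for HLA-DPB1 and 0.011 for CIITA. Without CAOV-3 it was 0.19 for HLA-DPB1, 0.12 for CIITA and 0.012 for HLA-DPA1, and without DOV-13 0.023 for CIITA and 0.67 for CD74. Without OVCAR-3 it was 0.12 for CIITA and 0.15 for HLA-DPA1, and without SKOV-3 -0.22 for HLA-DMB. An exact sign-flip test over 4 pairs cannot give a two-sided p under 0.125.

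**Figure D3:**
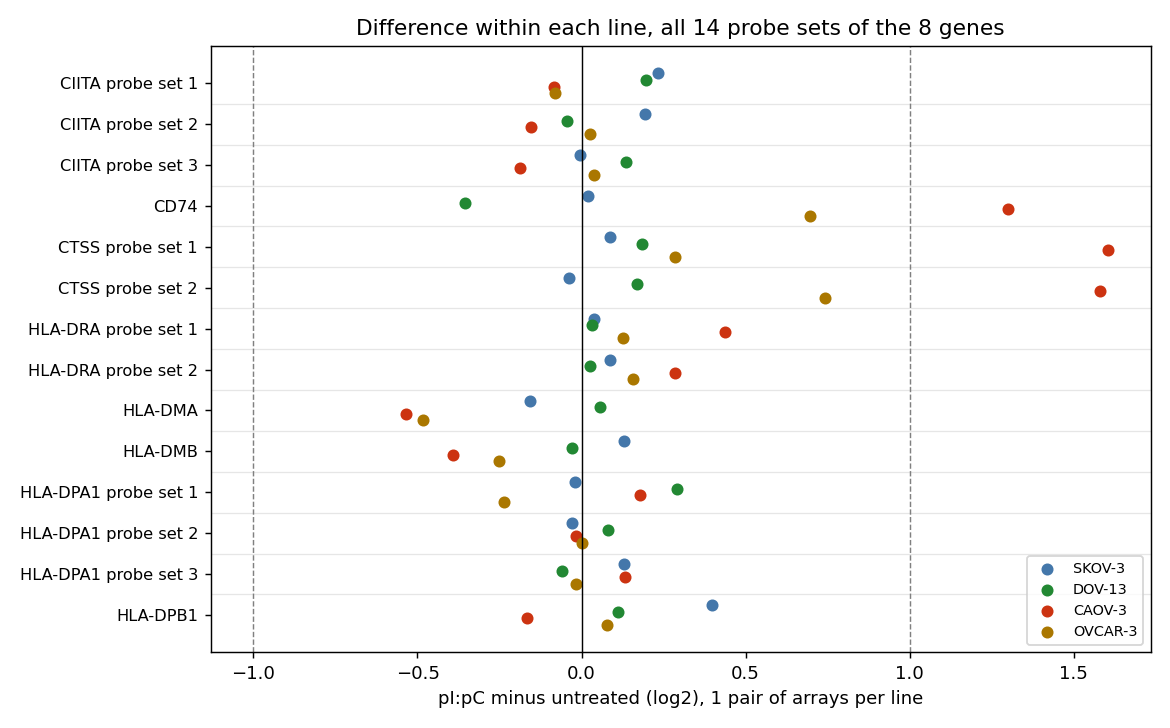
Treated minus untreated log2 level (horizontal axis) of all 14 probe sets of the 8 genes (vertical axis), with 1 point per line and dashed lines at a difference of 1. CTSS and CD74 lie furthest right in CAOV-3, at 1.60 and 1.30, and HLA-DMA and HLA-DMB lie left of 0 in CAOV-3 and OVCAR-3.

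Of 27 further probe sets with an HLA class II symbol, 7 (25.9%) were called higher in CAOV-3 than in the other lines and 0 lower. Limma was fitted here over all 20113 named probe sets, and the share was close to the 24.1% of them that were higher. The 7 were 4 of HLA-DQB1 and 3 shared by HLA-DRB genes, with or without HLA-DQB1. Those with the largest difference were of HLA-DQB1, the beta chain of HLA-DQ, at 6.69 in untreated CAOV-3 against 5.17, 4.99 and 5.03 in SKOV-3, DOV-13 and OVCAR-3 on 1 probe set, and at 5.61 against 4.49, 4.37 and 4.21 on another. A probe set shared by HLA-DRB5, HLA-DRB4, HLA-DRB1 and HLA-DQB1 read 6.12 against 5.27, 5.36 and 5.59, and after pI:pC 6.60 in CAOV-3. Class II genes are close copies and differ between people, so a probe set can bind the transcript of a neighbour or miss an allele. The other 3 probe sets of HLA-DQB1 alone were not called (differences 0.12, -0.03 and -0.05), nor was any probe set of HLA-DRB1, HLA-DRB4, HLA-DRB6, HLA-DOA, HLA-DOB, HLA-DQA1 or HLA-DQB2 alone.

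The lists that follow are described against the 25.9% of all genes called higher and 27.9% called lower in CAOV-3. Among 10 measured factors that bind the class II promoters or act with CIITA there, 4 were called higher and 5 lower in CAOV-3 than in the other lines. RFXANK, a subunit of the RFX complex, was higher by 0.72 ± 0.07 (SE, limma adjusted p = 5.56e-05). It was also called higher in SKOV-3, by 0.66 ± 0.07 (SE, limma adjusted p = 0.000109). The subunits of NF-Y did not share a direction. NFYB had a difference of -1.68 ± 0.08 (SE, limma adjusted p = 2.13e-06). NFYA was higher by 0.70 ± 0.10 and NFYC by 0.63 ± 0.11 (SE, limma adjusted p = 0.000637 and 0.00175). In SKOV-3 NFYA was also called higher, by 0.62 ± 0.10 (SE, limma adjusted p = 0.00149), while NFYC was called lower. Higher RFXANK and NFYA were thus not particular to CAOV-3. The co-activator gene EP300 stood out at 3.60 in untreated CAOV-3 against 8.31, 7.02 and 7.90 in SKOV-3, DOV-13 and OVCAR-3, a difference of -4.18 ± 0.10 (SE, limma adjusted p = 8.71e-08) from the other lines. A second EP300 probe set read 3.31 against 7.59, 6.46 and 6.71, so both were at the low end in CAOV-3. RFX5, the DNA-binding subunit of RFX, was 8.56 in untreated CAOV-3 and 8.89 after pI:pC. CAOV-3 exceeded the other lines by 0.48 ± 0.08 (SE, limma adjusted p = 0.00176). Untreated OVCAR-3 was close, at 8.49, and RFX5 was called lower in SKOV-3 and DOV-13. After treatment 0 of the 10 were counted in any line, and the median mean difference was -0.04, against 0.01 over all genes.

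Of 11 measured regulators upstream of CIITA, 4 were called higher in CAOV-3 and 1 lower. IRF1, an interferon-induced transcription factor that acts on a CIITA promoter, read 7.92 in untreated CAOV-3 against 6.49, 6.76 and 6.54 in SKOV-3, DOV-13 and OVCAR-3. The interferon gamma receptor genes IFNGR1 and IFNGR2 exceeded the other lines by 1.20 ± 0.13 and 1.39 ± 0.11 (SE, limma adjusted p = 0.000173 and 2.41e-05). In CAOV-3 they were higher after pI:pC by 0.59 and 0.54, and IRF1 by 0.29. The 1 gene called lower in CAOV-3 was the kinase gene JAK1, with a difference of -0.66 ± 0.08 (SE, limma adjusted p = 0.000206). The interferon gamma gene itself, IFNG, read between 4.25 and 4.48 in untreated cells of the 4 lines, under the median gene. None of the 11 was counted after treatment in any line.

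The lysosomal list held 17 measured genes, of which 9 were called higher and 5 lower in CAOV-3. The cathepsin gene CTSZ read 8.51 in untreated CAOV-3 against 6.22, 6.80 and 5.53 in SKOV-3, DOV-13 and OVCAR-3. CTSV, a cathepsin that can cut the invariant chain, read 11.62 against 8.79, 9.10 and 11.05. CTSV was also called higher in OVCAR-3, by 1.18 ± 0.08 (SE, limma adjusted p = 1.49e-05). The genes called lower in CAOV-3 included CTSL and CTSB, with differences of -0.79 ± 0.08 and -0.53 ± 0.09 (SE, limma adjusted p = 6.7e-05 and 0.0016). No gene of this list was counted in any line, and its median difference in CAOV-3 was 0.02. Of CTSS and the 8 cathepsin genes in the list, CTSS thus had the largest difference after pI:pC in CAOV-3. Of 8 measured genes of class II turnover and trafficking 4 were called higher and 2 lower in CAOV-3, and 0 were counted after treatment in any line.

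Class I genes, set beside them, were high in CAOV-3 too. Over both arrays of a line, all 11 measured genes of the class I list were called higher in CAOV-3 than in the other lines. They were led by the immunoproteasome subunit gene PSMB9, at 9.03 untreated against 5.48, 7.66 and 5.21 in SKOV-3, DOV-13 and OVCAR-3. Untreated HLA-E, however, read 10.48 in CAOV-3 and 10.59 in SKOV-3, where it was also called higher (limma adjusted p = 0.0447). In CAOV-3 the median difference after pI:pC was 0.88 for the class I list and 0.05 for the 8 class II and CTSS members, against -0.02 over all genes. In OVCAR-3 it was 0.39 for the class I list and -0.002 for the members. Every class I gene was thus higher on the treated CAOV-3 array, while 4 of the 8 members were higher and 4 lower.

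Markers of other cells were examined because class II is usual in leukocytes. Of 16 measured leukocyte and antigen presenting cell markers, 1 was called higher and 2 lower in CAOV-3. The summed log2 level of the list lay between 82.4 and 83.9 on all 8 arrays. At most 2 of the 16 genes reached the median gene on an array, so this sum cannot show equal leukocyte content. PTPRC (CD45) read 4.29 in untreated CAOV-3 and 4.11 to 4.22 in the other untreated lines, LYZ 3.59 and the B cell marker gene MS4A1 4.81, all far under the median gene. CD83, an activation marker of dendritic cells that was not called in CAOV-3, lay between 6.88 and 7.46 in untreated cells. It was called lower in SKOV-3, with a difference of -0.34 from the other lines (limma adjusted p = 0.0362). CD14, the lipopolysaccharide co-receptor of monocytes, was the marker called higher, at 7.06 in untreated CAOV-3 against 4.83, 4.57 and 4.50 in SKOV-3, DOV-13 and OVCAR-3, and at 6.15 after pI:pC. The part of CD14-expressing cells in the class II levels was not tested. Of the 10 epithelial and ovarian carcinoma markers 5 were higher and 5 lower in CAOV-3, where CDH1 (E-cadherin) read 9.70 and the mucin gene MUC1 11.99 untreated. The ovarian markers PAX8, WT1 and MUC16 were lower there than the mean of the other lines, with differences of -1.69, -0.70 and -0.89 (limma adjusted p = 1.93e-06, 0.00018 and 0.000472). MUC16, which encodes a cell-surface mucin, read 4.80 in untreated CAOV-3, 4.13 in SKOV-3, 4.05 in DOV-13 and 9.59 in OVCAR-3. WT1 read 4.89, 5.08, 5.07 and 6.78 in the same order. MUC16 and WT1 were also called lower in SKOV-3 and in DOV-13, and PAX8 in DOV-13. Low levels of these markers were thus not particular to CAOV-3. The keratin genes KRT8 and KRT18 were far above the median gene on every array, from 10.53 upward. CDH1 was low in untreated SKOV-3 and DOV-13, at 3.74 and 3.58, and read 9.41 in OVCAR-3.

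The genes most like the members over the 8 arrays were sought among 4606 genes with a range of at least 1. The correlations describe 4 pairs of arrays that share their lines, and they carry no test. For CD74 the closest were AK4 (Pearson r = 0.99), OAS1 (0.98), ADAR (0.98), IRF7 (0.98) and BCAS2 (0.97). OAS1, an interferon-induced antiviral enzyme, read 7.57 in untreated and 10.31 in treated CAOV-3, and 4.62 in untreated SKOV-3. For CTSS they were LAP3 (0.97), an interferon-induced aminopeptidase, CXCL10 (0.94), RSAD2 (0.93), LTB (0.92) and TNFAIP2 (0.92). For CIITA, whose own range was 0.39, the best was ATG9A at 0.80. Among the members themselves HLA-DMA correlated with HLA-DPB1 at 0.961, with HLA-DMB at 0.951 and with HLA-DRA at 0.923, and CTSS with HLA-DMA at 0.407. CIITA correlated with none of the class II genes above 0.

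**Figure D4:**
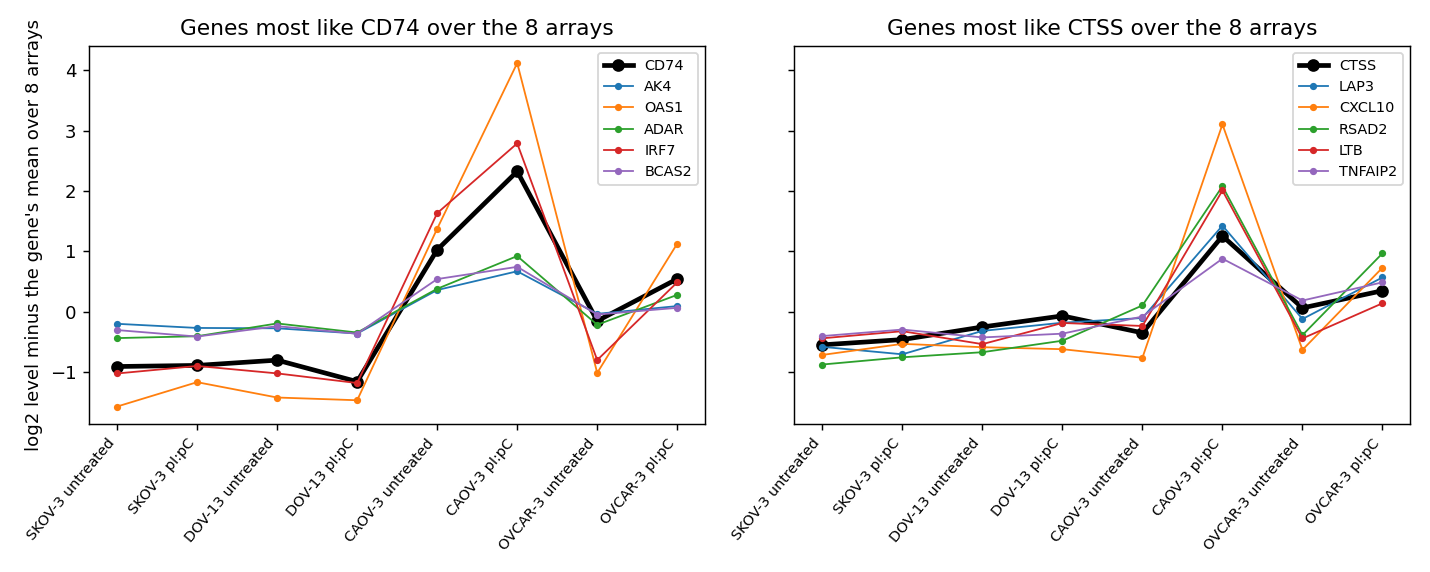
Log2 level minus the gene's own mean over 8 arrays (vertical axis) on each array (horizontal axis), for CD74 and its 5 most similar genes on the left and for CTSS and its 5 on the right. CD74 and its group are raised on both CAOV-3 arrays and higher still on the treated one, while CTSS and its group are raised mainly on the treated CAOV-3 array.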

How the data were processed

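RNA of 4 cell lines, untreated or given pI:pC, was measured on 8 Affymetrix arrays (22277 probe sets). Per the submitters' processing notes the values come from RMA (robust multi-array average), and the authors deposited them on a log2 scale. The sources used here name no software or version. Medians of the deposited columns lay between 6.19 and 6.30. Gene symbols came from the platform table: 19070 probe sets carry 1 symbol, 1043 several and 2164 none here. Each gene is its probe set with the highest mean over 8 arrays (11963 genes).

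Groups and lines came from the labels. The cell line pairs the arrays: arrays of 1 line correlated at 0.992 to 0.997, of different lines at 0.897 to 0.947, and deviations from the group means within a line at 0.935 to 0.965. Limma (3.58.1, R 4.3.3; lmFit, eBayes) was fitted on line and treatment over all genes, with 3 residual and 4.41 prior degrees of freedom, two-sided, Benjamini-Hochberg adjusted over all genes in each contrast, threshold 0.05, and tested on simulated data. Contrasts were treated minus untreated, each line against the mean of the others, and 6 line pairs. Ratios are 2 to the power of a log2 difference. The number of arrays limits precision.

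All members, every gene of the named lists that was called or counted (at most 6 by size), and the 5 genes most like CD74, CTSS and CIITA were eligible to be named. IFNG, RFX5, NFYC, CTSL, CTSB and the second EP300 probe set were added after their values were seen. So were the marker genes PTPRC, LYZ, MS4A1, CD83, WT1, KRT8 and KRT18. Members and lists were chosen with earlier results of these data known. Some listed genes were not analysed here, and some items are not reported here. Alternatives are given in the closing section.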

Additional observations from a re-analysis of the deposited data

Results flagged for a closer look

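In 16 sets of 4 arrays (8 genes, untreated or treated), 5 held an array far from the others by Dixon's test. About 1 in 20 would be flagged by chance among independent sets of like samples. These sets share the same 4 different lines, and the genes flagged for CAOV-3 are correlated. The count is therefore no measure of an excess over chance. CAOV-3 was the high array for HLA-DRA untreated (6.59, next 5.61) and treated (7.03, next 5.70), for HLA-DMA treated (6.84, next 4.76) and for HLA-DPB1 untreated (6.51, next 4.63). OVCAR-3 was the high array for HLA-DPA1 untreated (5.56, next 4.95).

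CD74 moved in opposite directions in 2 lines after pI:pC, by 1.30 in CAOV-3 and by -0.36 in DOV-13. The difference between the lines was not tested, since each has 1 pair of arrays.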

How the results depend on the processing

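The higher level of CD74, HLA-DRA, HLA-DMA, HLA-DMB and HLA-DPB1 in CAOV-3 kept its direction and its call in all 13 alternatives that gave a value, among them the mean of a gene's probe sets, a second quantile normalization, median centring, a trended robust eBayes and the loss of any 1 array. The largest adjusted p was 0.0408, for HLA-DMB. The filter at the median level left 0 of the 8 members and gives no value. Leaving out 1 array moved the count of members called between 3 and 6 for SKOV-3, between 2 and 5 for DOV-13 and between 1 and 5 for OVCAR-3 against the other lines. It moved the count between 0 and 1 for SKOV-3 minus DOV-13, between 0 and 3 for SKOV-3 minus OVCAR-3 and between 0 and 2 for DOV-13 minus OVCAR-3. SKOV-3 minus OVCAR-3 had 1 call with the mean of all probe sets and 1 with the trended robust eBayes, and DOV-13 minus OVCAR-3 had 2 with a second quantile normalization and 2 with centring. CTSS in CAOV-3 against the other lines ranged from -0.10 without the treated CAOV-3 array to 1.31 without the untreated one. The mean difference of HLA-DPA1 over the lines ranged from -0.026 without DOV-13 to 0.15 without OVCAR-3. Within CAOV-3, 2 members were counted at a difference of 0.5 and 2 with no minimum level, and within OVCAR-3 1 was counted at 0.5. Without the cell line as a block 0 members were called over the lines (for CTSS the mean stays 0.54, adjusted p = 1), and a member's adjusted p was at least 0.704 in every alternative. Causes were not tested.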
